A study of Mus musculus with 2 samples.

Results

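Formins are proteins that nucleate and lengthen unbranched actin filaments, staying at the growing end while profilin delivers actin monomers. Most are held closed by contact between their own ends until a regulator opens them, and the straight filaments they make serve filopodia, stress fibres, cortical actin and the ring that divides a cell. The levels of 10 formin genes, *Diaph1*, *Diaph2*, *Diaph3*, *Fmn1*, *Fmnl1*, *Fmnl2*, *Fmnl3*, *Daam1*, *Inf2* and *Fhod1*, were examined in single cells sorted from the mouse brain. They were chosen by symbol from the 15 formin genes of the mouse and the 32285 genes counted. The other 5 (*Fmn2*, *Daam2*, *Fhod3*, *Fhdc1* and *Grid2ip*) together gave 5 unique molecular identifiers (UMIs, tags that mark captured transcripts) in one library and 22 in the other, against 15362 and 15177 UMIs of the 10.

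The mice were *Disc1* LI/LI animals, homozygous for the locus impairment allele of *Disc1*, and their *Disc1* WT/WT littermates, all males of 23 weeks. The allele is present in the whole animal and is not restricted to one cell type. Brains of 6 mice per genotype were pooled, dissociated with actinomycin D to limit new transcription, sorted for low CD45 and for CD11b, and made into 1 droplet library per genotype. The study concerned the control of the actin cytoskeleton in microglia, the resident macrophages of the brain. Without replicate libraries no test of genotype is possible, and every interval given here is a 95% interval for counting error only. Which of the 2 chip types named in the labels carried which library is not given, so chip and genotype cannot be told apart.

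Of 7038 WT/WT and 7834 LI/LI barcodes, 7032 and 7817 passed a minimum of 200 genes detected and a limit of 10% of UMIs from mitochondrial genes. Cells with UMIs of at least 3 of 7 mitosis genes were called cycling cells. Among the others, neutrophils had at least 3% of their UMIs from *S100a8* and *S100a9*, microglia had at least 0.5% from 6 microglial genes and under 1% from the S100 pair, and the remainder are the other cells. The WT/WT library held 6158 microglia (87.6%), 114 neutrophils (1.62%), 54 cycling cells (0.768%) and 706 other cells (10.0%). The LI/LI library, also labelled as microglia, held 1944 microglia (24.9%), 3389 neutrophils (43.4%), 643 cycling cells (8.23%) and 1841 other cells (23.6%). All 12 marker genes kept outside the gates were highest in their own class in both libraries, for microglia, neutrophils and cycling cells alike. Median UMIs per cell were 4267, 4627, 11230 and 3534 in WT/WT and 3780, 3901, 16548 and 5958 in LI/LI, in the order of classes above, and 12 barcodes occurred in both libraries. *Disc1* itself had 642 UMIs (19.1 per 1000000 UMIs, or CPM; interval 17.7 to 20.6) in WT/WT and 22 (0.461, 0.289 to 0.698) in LI/LI.

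The classes other than microglia differed between the libraries in their level of microglial gate genes, to be read beside their genotype ratios below. The level of the 6 gate genes of microglia was 18.1% of its microglial value in WT/WT neutrophils, 28.0% in WT/WT cycling cells and 15.3% in WT/WT other cells, but 3.77%, 1.19% and 4.41% in LI/LI. Of the cycling cells, 22 of 54 in WT/WT and 6 of 643 in LI/LI also met the microglia gate, and 2 and 233 met the neutrophil gate. The classes named cycling and other were therefore of different makeup in the 2 libraries. Levels are given as CPM, the UMIs of the gene per 1000000 UMIs of the class. They are not scaled by gene length and are compared between cells for one gene, not between genes.

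**Figure D1:**
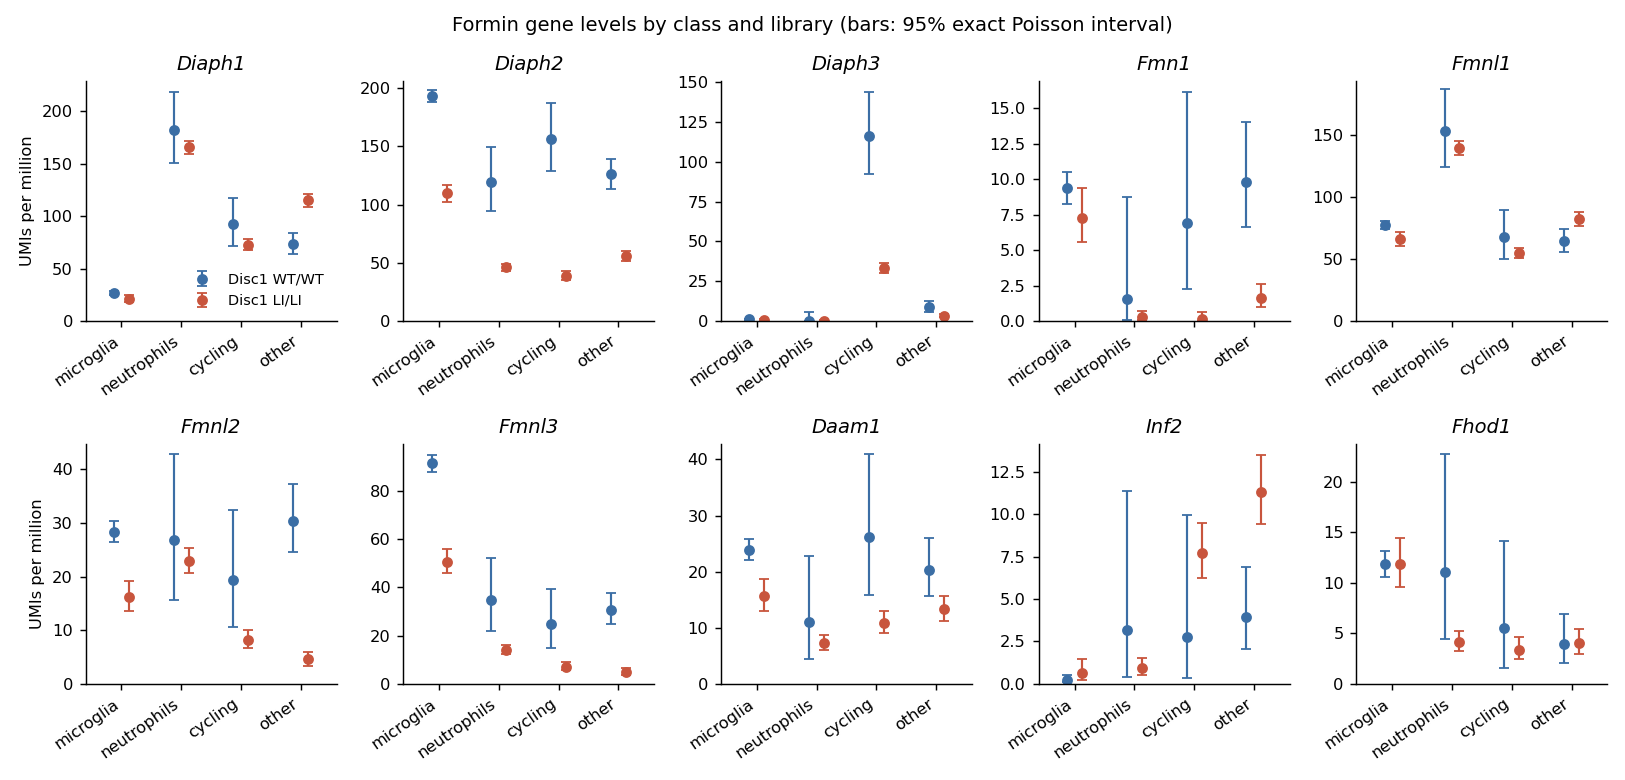
CPM for each of the 10 formin genes (vertical axes, each from 0 and with its own scale) in the 4 classes (horizontal axis) of the WT/WT (blue) and LI/LI (red) libraries, with 95% exact Poisson intervals. *Diaph1* and *Fmnl1* were highest in neutrophils, *Diaph3* in cycling cells, and *Diaph2* and *Fmnl3* in microglia, in both libraries, except that TMM scaling put *Diaph2* higher in LI/LI neutrophils than in LI/LI microglia.

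Across classes, neutrophils had the higher levels of *Diaph1* and *Fmnl1*, microglia those of *Fmnl3* and, except under some settings given below, *Diaph2*, and cycling cells those of *Diaph3*. *Inf2* was rare in microglia and in LI/LI neutrophils. Compared with microglia inside each library, 1 of the 8 formin genes with at least 50 UMIs was higher by at least 2-fold in neutrophils in both libraries (*Diaph1*), and 3 were lower (*Fmn1*, *Fmnl3* and *Daam1*). Of all 11624 genes so compared, 8.71% were higher and 44.2% lower. *Fmnl1* missed the 2-fold limit in WT/WT alone (1.97-fold) and passed it in both libraries under 7 alternatives. Scaling by trimmed means (TMM) left only *Fmn1* of the 3 lower by 2-fold in both libraries, and turned the LI/LI log2 ratios of *Diaph2* from -1.25 to 0.30, of *Daam1* from -1.10 to 0.45 and of *Fhod1* from -1.51 to 0.05. Thinning to 1000 UMIs per cell left none of the 1 *Fmn1* and 7 *Daam1* UMIs of WT/WT neutrophils. The floor of 3 UMIs then gave WT/WT log2 values of 1.87 and 0.18, which are upper bounds and not measured ratios. In cycling cells 3 of 10 were higher than in microglia (*Diaph1*, *Diaph3*, *Inf2*; 11.8% of all genes) and 2 lower (*Fmnl3*, *Fhod1*; 16.6%). Other cells gave the same 3 and 2 names, with 10.7% and 13.2% of all genes. For *Fhod1* in WT/WT cycling cells the log2 ratio to microglia, -1.10, rested on 4 UMIs. Its interval, -2.98 to 0.27, held 0. Against neutrophils, *Diaph3* was higher in cycling cells (1 of 9; 34.3% of all genes) and *Fmnl1* lower (1 of 9; 6.75%).

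*Diaph1* (chromosome 18, 91876 bases) encodes mDia1, a Diaphanous formin active in leukocyte polarity and migration. The level of *Diaph1* in microglia was 26.3 CPM in WT/WT (interval 24.5 to 28.3, 768 UMIs) and 21.2 in LI/LI (18.1 to 24.6, 172 UMIs). Neutrophils had 183 (151 to 219, 116 UMIs) and 166 (159 to 172, 2752 UMIs). Both neutrophil values thus lay far above both microglial ones, by 6.93-fold in WT/WT and 7.81-fold in LI/LI. A *Diaph1* UMI was seen in 57.9% and 52.4% of neutrophils and in 10.5% and 7.77% of microglia, at similar depths. Cells thinned to 1000 UMIs gave 19.2% and 17.9% against 2.46% and 2.05%. Cycling cells, with 92.5 (71.7 to 118) and 73.0 (68.2 to 78.0), were intermediate, as were other cells, with 73.3 (64.0 to 83.6) and 115 (109 to 121). The order below neutrophils differed between the libraries, and in WT/WT the intervals of cycling and other cells overlapped.

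*Diaph2* (chrX:129749742-130465834, plus strand, 716093 bases), which encodes mDia3, had its highest CPM in microglia, an order that depended on the scaling. In microglia it reached 193 CPM in WT/WT (188 to 198, 5628 UMIs) and 109.7 in LI/LI (103 to 117, 890 UMIs). Neutrophils had 119.6 (94.2 to 149.7) and 46.0 (42.8 to 49.4), cycling cells 156 (129 to 188) and 39.0 (35.6 to 42.8), and other cells 126 (114 to 139) and 55.7 (51.4 to 60.3). The class order was shallow, 1.61-fold from highest to lowest in WT/WT and 2.81-fold in LI/LI. Each LI/LI value lay below each WT/WT value, with overlap only between the interval of LI/LI microglia and those of WT/WT neutrophils and other cells. With TMM scaling LI/LI neutrophils lay above LI/LI microglia (log2 ratio 0.30), and WT/WT cycling cells lay above WT/WT microglia with thinning (0.07) and without the 5% of barcodes with most UMIs (0.14).

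*Diaph3* (chr14:86655367-87141235, minus strand, 485869 bases) encodes mDia2, which serves the cleavage furrow and the cortex of dividing cells. Of the classes, cycling cells had its highest level, 116 CPM in WT/WT (92.5 to 144, 84 UMIs) and 33.2 in LI/LI (30.0 to 36.6, 395 UMIs). Microglia had 0.960 (0.638 to 1.39, 28 UMIs) and 0.493 (0.134 to 1.26, 4 UMIs), that is, 121-fold and 67.3-fold less. WT/WT neutrophils had 0 UMIs, and a floor of 3 UMIs makes cycling cells at least 24.6-fold higher there. In LI/LI neutrophils the level was 0.301 (0.0977 to 0.702). A *Diaph3* UMI was found in 57.4% of WT/WT and 40.4% of LI/LI cycling cells, and in 0.422% and 0.206% of microglia; at 1000 UMIs per cell these shares were 9.87%, 3.85%, 0.0887% and 0.0417%. *Diaph3* was not a gate gene. Within cycling cells its level was 166 (116 to 231) in the 22 WT/WT cells in the microglia gate, 97.5 (71.7 to 129.7) in the 30 WT/WT cells in neither gate, 41.3 (36.7 to 46.4) in the 404 LI/LI cells in neither gate and 20.8 (16.9 to 25.2) in the 233 LI/LI cells in the neutrophil gate. Of these groups, the cells in the neutrophil gate had the lowest level. *Diaph3* was not confined to the cycling gate. Among other cells, 10 LI/LI cells assigned to a list of erythroid markers, by the rule given below, had 149.9 (79.8 to 256, 13 UMIs). In WT/WT 3 such cells had 105 (28.5 to 268, 4 UMIs).

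The promoter of *Diaph3* is shown for its high level in cycling cells, and that of *Fmnl3* for comparison with a gene high in microglia. Both are RefSeq windows of build GRCm38.p6 from 250 bases before to 50 bases after the start of transcription, on the minus strand, at chr14:87141175-87141474 and chr15:99370433-99370732. Capitals mark CCAAT or its reverse complement ATTGG, the binding sequence of the factor NF-Y found in many promoters of cell division genes.
Diaph3: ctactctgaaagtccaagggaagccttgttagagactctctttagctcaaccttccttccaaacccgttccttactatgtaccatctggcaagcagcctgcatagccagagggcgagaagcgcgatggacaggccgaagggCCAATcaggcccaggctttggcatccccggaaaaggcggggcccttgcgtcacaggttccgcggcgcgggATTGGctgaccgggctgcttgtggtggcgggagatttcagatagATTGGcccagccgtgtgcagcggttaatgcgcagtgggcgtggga
Fmnl3: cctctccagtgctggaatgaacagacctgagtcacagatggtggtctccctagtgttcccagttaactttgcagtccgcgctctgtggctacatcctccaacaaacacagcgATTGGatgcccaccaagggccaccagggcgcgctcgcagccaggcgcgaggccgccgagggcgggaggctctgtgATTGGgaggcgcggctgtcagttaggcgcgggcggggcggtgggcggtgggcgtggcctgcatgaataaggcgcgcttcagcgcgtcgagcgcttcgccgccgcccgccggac
The *Diaph3* window holds 3 such pentamers, starting 109 and 39 bases before and 6 bases after the start, and that of *Fmnl3* holds 2. CCAAT in either orientation occurs in 37.4% of the 32851 promoter windows and in a window of 4 formin genes (*Fmn1*, *Daam1*, *Diaph3* and *Fmnl3*) of the 9 searched. The share is per window, whereas *Fmn1*, *Daam1* and *Inf2* were counted over more than a single window each. Neither TTTGAA (17.9% of windows) nor TTCGAA (1.56%), sequences of the cell cycle homology region, was found in the *Diaph3* window.

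The formin-like genes encode cortical formins that bind Cdc42 or Rac and act in macrophage podosomes, lamellipodia and filopodia. *Fmnl1* (chr11:103171107-103198901, plus strand, 27795 bases), the leukocyte member, had 153 CPM in WT/WT neutrophils (124 to 186, 97 UMIs) and 139 in LI/LI (133 to 145, 2307 UMIs). Microglia had 77.5 (74.4 to 80.8, 2262 UMIs) and 65.9 (60.5 to 71.8, 535 UMIs). The intervals of neutrophils and microglia were apart in both libraries, by 1.97-fold and 2.11-fold. Cycling cells, at 67.7 (50.1 to 89.5) and 54.7 (50.5 to 59.0), and other cells, at 64.1 (55.5 to 73.8) and 81.8 (76.5 to 87.3), lay within 1.5-fold of microglia. In LI/LI the intervals of all 4 classes were apart.

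The *Fmnl1* window, at chr11:103170888-103171187 on the plus strand, is shown as that of a formin gene high in neutrophils. Its capitals mark TTCCTC, the reverse complement of the core GAGGAA of PU.1, a factor of myeloid cells, and the palindrome TTCGAA.
Fmnl1: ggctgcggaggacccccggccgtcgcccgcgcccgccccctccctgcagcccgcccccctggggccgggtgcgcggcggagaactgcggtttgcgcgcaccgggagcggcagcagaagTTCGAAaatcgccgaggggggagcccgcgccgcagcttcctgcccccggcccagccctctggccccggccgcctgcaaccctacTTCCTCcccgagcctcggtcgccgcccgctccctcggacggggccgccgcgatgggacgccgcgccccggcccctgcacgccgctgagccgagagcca
GAGGAA in either orientation occurs in 28.3% of all windows and in a window of 5 of the 9 formin genes searched (*Fmn1*, *Fmnl1*, *Daam1*, *Inf2* and *Diaph2*). The 5 include *Inf2*, which was rare in microglia.

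*Fmnl3* (chr15:99317225-99370482, minus strand, 53258 bases), linked to filopodia, had its highest level in microglia among the 4 classes. Its level in microglia was 91.6 CPM in WT/WT (88.2 to 95.2, 2673 UMIs) and 50.8 in LI/LI (46.0 to 55.9, 412 UMIs). Neutrophils had 34.6 (21.7 to 52.4, 22 UMIs) and 14.2 (12.4 to 16.1, 236 UMIs), cycling cells 24.9 (14.7 to 39.3) and 7.14 (5.70 to 8.82), and other cells 30.8 (24.9 to 37.6) and 4.89 (3.67 to 6.38). In CPM, microglia were above all 3 other classes with no overlap of intervals in either library. With TMM scaling microglia stayed above neutrophils, but by less than 2-fold in each library. When WT/WT neutrophils were limited to the 87 of 114 cells with under 0.1% of their UMIs from the gate genes of microglia, *Fmnl3* was 13.7 (4.45 to 32.0, 5 UMIs). That interval overlapped the one of all 114 cells. The 3216 LI/LI neutrophils chosen in the same way had 12.3 (10.6 to 14.2). These cells were chosen by genes high in microglia, as *Fmnl3* is, so the part of microglial transcripts in its neutrophil levels was not tested.

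*Fmnl2* (chr2:52857860-53133804, plus strand, 275945 bases), a Cdc42 effector of lamellipodia, showed a split within neutrophils instead. Over whole classes it had 28.3 CPM in WT/WT microglia (26.4 to 30.3) and 16.1 in LI/LI (13.5 to 19.2), beside 26.8 (15.6 to 42.8, 17 UMIs) and 23.0 (20.7 to 25.4, 382 UMIs) in neutrophils. Cycling cells had 19.3 (10.6 to 32.4) and 8.14 (6.60 to 9.93), and other cells 30.4 (24.6 to 37.3) and 4.53 (3.36 to 5.97). In WT/WT no neighbouring classes differed beyond their intervals, and in LI/LI all did. Neutrophils were then divided at 1% of UMIs from 6 genes of the immature stage (*Camp*, *Ltf*, *Ngp*, *Lcn2*, *Cybb* and *Chil3*), a limit set after the counts were seen. Granule-high neutrophils held 16 of the 17 WT/WT and 372 of the 382 LI/LI *Fmnl2* UMIs. Their levels were 36.8 (21.0 to 59.7) and 30.4 (27.4 to 33.6), against 5.00 (0.126 to 27.8) and 2.29 (1.10 to 4.21) in granule-low neutrophils. The LI/LI fold was 13.3, and the WT/WT fold, on a single UMI, was 7.36 with an interval on the log2 scale of 0.19 to 8.27. *Fmnl2* was the only 1 of 7 formin genes past 2-fold in both libraries (2.3% of all genes were higher and 7.25% lower in granule-high neutrophils). *Diaph1* and *Fmnl1* leaned the other way in LI/LI, with 145 (139 to 152) and 116 (110.0 to 122) in granule-high and 223 (209 to 237) and 203 (189.7 to 217) in granule-low neutrophils, log2 ratios of -0.62 and -0.81. In WT/WT their ratios were -0.19 (-0.77 to 0.40) and -0.55 (-1.16 to 0.08). There were 57 cells on each side of the limit in WT/WT and 1907 high and 1482 low cells in LI/LI, and 29 and 1031 cells had between 0.5 and 2%.

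Among the remaining formins, *Daam1* (chr12:71831078-71992333, plus strand, 161256 bases), which acts downstream of Dishevelled in Wnt signalling, had overlapping intervals in WT/WT microglia, cycling cells and other cells, while LI/LI cycling cells lay below LI/LI microglia. Microglia had 23.9 (22.1 to 25.7) and 15.7 (13.05 to 18.6), cycling cells 26.2 (15.8 to 41.0) and 10.9 (9.12 to 12.96), and other cells 20.3 (15.6 to 26.0) and 13.3 (11.2 to 15.6). Neutrophils had 11.0 (4.43 to 22.7, 7 UMIs) and 7.28 (6.04 to 8.70, 121 UMIs). *Fmn1* (chr2:113327736-113716767, plus strand, 389032 bases), the founding formin, first known from limb development, had 9.36 (8.28 to 10.5, 273 UMIs) and 7.27 (5.53 to 9.38, 59 UMIs) in microglia and 1 UMI in WT/WT and 5 UMIs in LI/LI neutrophils. WT/WT other cells had as much as microglia, 9.82 (6.62 to 14.0), but LI/LI other cells had 1.63 (0.966 to 2.58), and the cycling cells of the 2 libraries held 5 and 2 UMIs.

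*Inf2* (chr12:112588784-112615557, plus strand, 26774 bases), a formin that also severs filaments and acts at mitochondria and the endoplasmic reticulum, had only 7 UMIs in WT/WT and 5 in LI/LI microglia, 0.240 (0.0965 to 0.494) and 0.616 (0.200 to 1.44) CPM. Neutrophils had 3.15 (0.381 to 11.4) on 2 UMIs in WT/WT and 0.903 (0.505 to 1.49) on 15 UMIs in LI/LI, where the interval overlapped that of microglia. WT/WT cycling cells had 2.76 (0.335 to 9.98), also on 2 UMIs. Higher levels were found in other cells, at 3.93 (2.03 to 6.86, 12 UMIs) and 11.3 (9.42 to 13.5, 125 UMIs), and in LI/LI cycling cells, at 7.72 (6.23 to 9.47, 92 UMIs). In the other cells of LI/LI, 101 of the 125 UMIs lay in the monocytes, which held 7103623 of the 11045648 UMIs of all genes there. Of the 92 UMIs in LI/LI cycling cells, 80 lay in cells of neither gate and 11 in those of the neutrophil gate. These 2 groups held 6893174 and 4961374 of the 11911188 UMIs of all genes in the class. *Fhod1* (chr8:105329163-105347953, minus strand, 18791 bases), a formin of stress fibres, had 11.8 in microglia of both libraries (10.6 to 13.1, 345 UMIs, and 9.58 to 14.4, 96 UMIs). Other cells had 3.93 and 4.07, and cycling cells 5.52 (1.51 to 14.1, 4 UMIs) and 3.36 (2.40 to 4.57, 40 UMIs). Neutrophils had 11.0 (4.43 to 22.7, 7 UMIs) and 4.15 (3.23 to 5.25, 69 UMIs).

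Other cells were sorted further by the fixed marker list with the most genes detected, at least 3, with ties left out. The rule gave 32 WT/WT and 1033 LI/LI cells to monocytes, 65 and 137 to T and NK cells, 221 and 188 to cells high in MHC class II, 101 and 18 to border macrophages, and 14 and 150 to B cells. Monocytes had 205 CPM of *Diaph1* in WT/WT (151 to 272) and 140.2 in LI/LI (132 to 149), near the levels of neutrophils. Their *Fmnl1* was 154 (108 to 213) and 94.6 (87.6 to 102), the latter between LI/LI microglia and neutrophils. They held little *Fmnl2* (4.28, 0.108 to 23.8, and 1.97, 1.08 to 3.31) and *Fmnl3* (4.28 and 2.25, 1.29 to 3.66). In LI/LI, *Inf2* was 14.2 (11.6 to 17.3) in monocytes and 0.898 (0.448 to 1.61) in granule-high neutrophils, a 15.8-fold difference, while *Diaph1* differed between the same cells by a log2 ratio of -0.05 (-0.16 to 0.06) and *Fmnl1* by -0.29 (-0.43 to -0.16). WT/WT border macrophages had 32.2 (16.6 to 56.2) of *Diaph1*, an interval that held the level of WT/WT microglia, and 163 (125 to 210.0) of *Diaph2*.

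**Figure D2:**
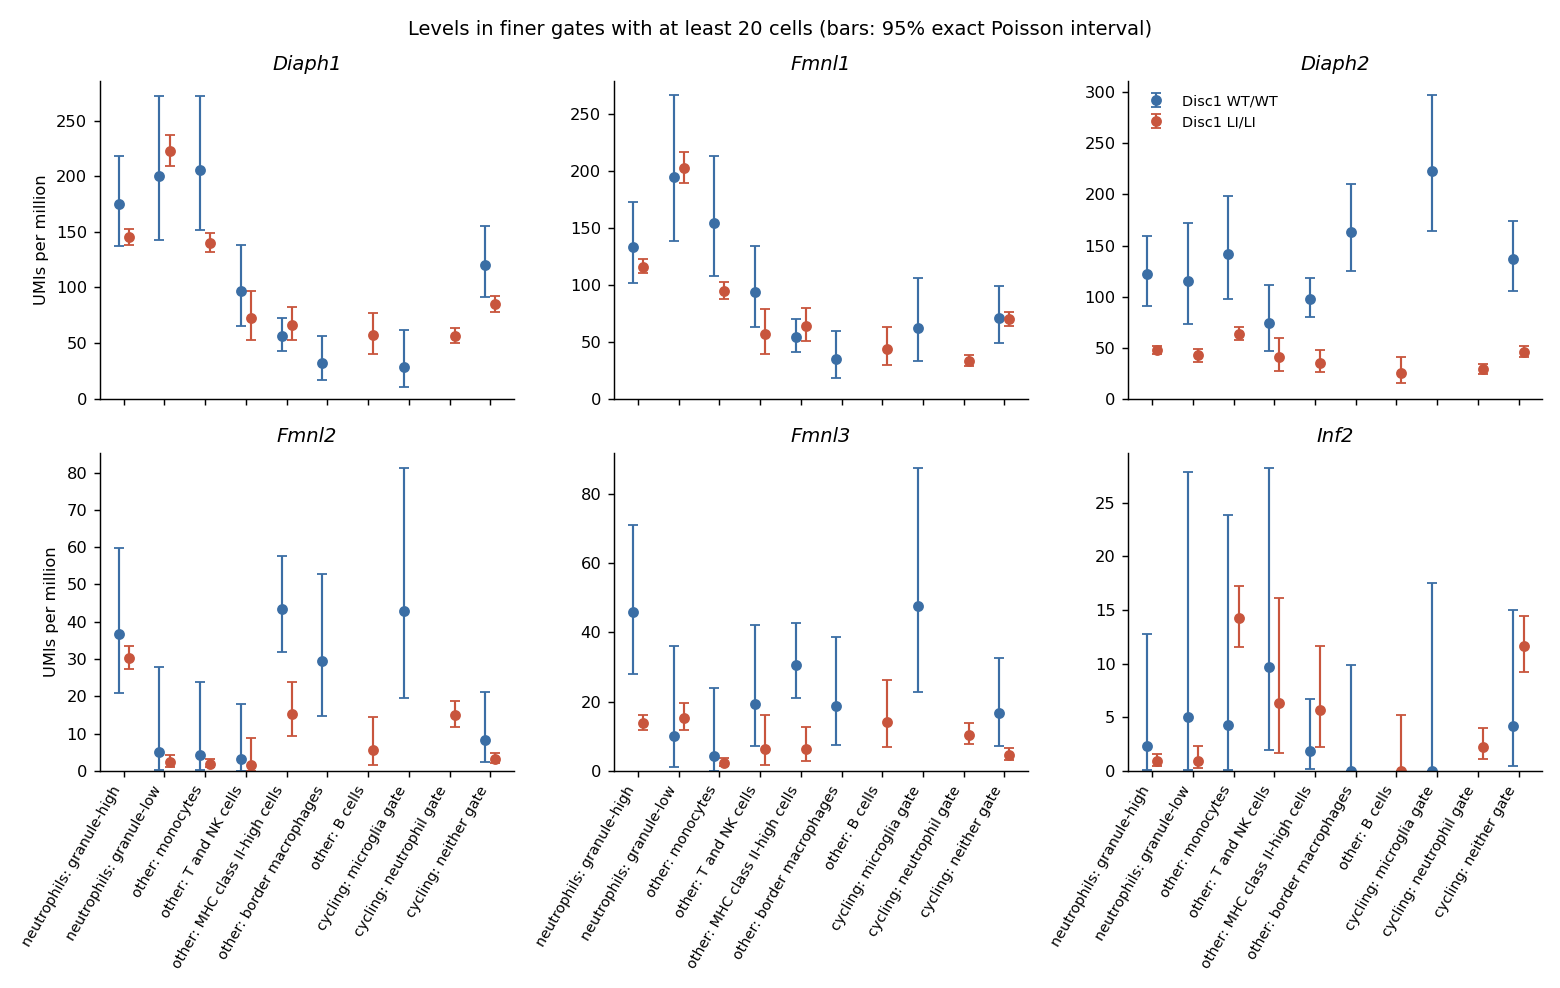
CPM for 6 formin genes (vertical axes, from 0, each with its own scale) in the finer groups with at least 20 cells in a library (horizontal axis), WT/WT in blue and LI/LI in red, with 95% exact Poisson intervals. *Diaph1* was high in neutrophils and monocytes, *Fmnl1* was highest in granule-low neutrophils, *Fmnl2* was high in granule-high and low in granule-low neutrophils, and *Diaph2* was lower in LI/LI in each of the groups shown for both libraries.

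For the members whose highest class was at least 4-fold above the lowest in both libraries, the 3 genes of most similar pattern were sought among 3806 genes by Pearson's r of log2(CPM + 10) over the 8 levels of class and library, which share libraries and depth. *Diaph1* was nearest to *Ppp2r5a* (r = 0.993), *Neat1* (0.989) and *Rbms1* (0.986). *Diaph3* was nearest to *Dlgap5* (0.980), *Hist1h1a* (0.978) and *Ckap2l* (0.977), which are genes of mitosis and S phase. *Fmn1* was nearest to *Mtss1* (0.982), *Lacc1* (0.978) and *Slc39a10* (0.973), and *Inf2* to *Cd47* (0.932), *Aprt* (0.913) and *Myo1g* (0.902). The match of *Inf2* is weak ground, since its levels, 0.240 to 11.3 CPM, are compressed by the added 10. Its WT/WT neutrophil and cycling levels rest on 2 UMIs each, and *Cd47* ran only from 273 to 515 CPM. The matches of *Fmn1* share this limit, with levels of 0.168 to 9.82 CPM. Its neutrophil and cycling levels rest on 1 and 5 UMIs in WT/WT and 5 and 2 in LI/LI. All are descriptions of 8 points.

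The comparison of genotypes in microglia addresses the cells the study is about. *Diaph2*, *Fmnl2*, *Fmnl3* and *Daam1* were lower in LI/LI microglia by at least 1.5-fold, and none of the 8 formin genes with at least 50 UMIs was higher by as much. Of all 11020 genes tested in the same way, 18.1% were lower and 2.84% higher. *Daam1* was within 1.5-fold with thinning (log2 ratio -0.50) and with TMM (-0.55), and the other 3 stayed past it under all 13 alternatives. The log2 ratio was -0.81 for *Diaph2* (interval -0.92 to -0.71), -0.81 for *Fmnl2* (-1.09 to -0.54), -0.85 for *Fmnl3* (-1.005 to -0.70) and -0.61 for *Daam1* (-0.89 to -0.34). *Diaph1*, at -0.31 (-0.56 to -0.07), and *Fmnl1*, at -0.23 (-0.37 to -0.10), were lower by less, and *Fmn1*, at -0.36 (-0.80 to 0.05), and *Fhod1*, at 0.00 (-0.34 to 0.33), had intervals that held 0. The median over the 8 was -0.49, beside -0.19 over all genes. *Diaph3*, with 28 and 4 UMIs, and *Inf2*, with 7 and 5, were too few to be counted. At 1000 UMIs per cell, a *Diaph2* UMI was found in 16.9% of WT/WT and 9.87% of LI/LI microglia, and a *Fmnl3* UMI in 8.70% and 4.87%. The mean number of the 10 genes found per microglial cell at that depth was 0.424 and 0.281.

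**Figure D3:**
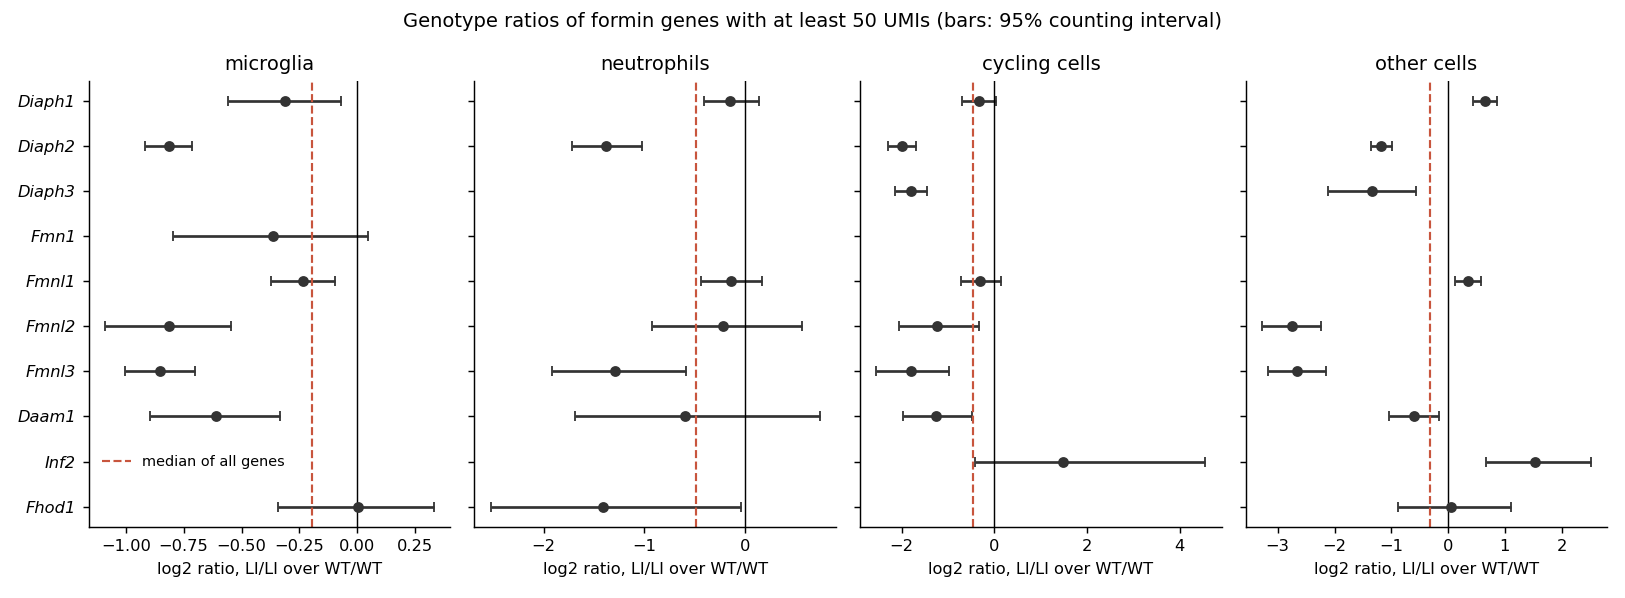
Log2 ratio of LI/LI over WT/WT (horizontal axes, which differ in range between panels) for the formin genes with at least 50 UMIs, in the 4 classes, with 95% counting intervals. The dashed line is the median over all genes of the class. In microglia the median over the 8 formin genes was -0.49, beside -0.19 over all genes. *Diaph2* lay below 0 in every class, as did the median over all genes.

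Gene length moved with the genotype ratio. Across 11018 genes, which are not independent, Spearman's rank correlation of ratio and length in microglia was -0.44. The median log2 ratio was 0.07 for genes under 10 kb (2941 genes) and -0.52 for those over 300 kb (191 genes), and the share lower by at least 1.5-fold was 8.30% and 40.3%. Of the 4 lower formin genes, *Diaph2* lies in the longest bin, *Fmnl2* and *Daam1* in that of 100 to 300 kb (median -0.47, 35.6% lower) and *Fmnl3* in that of 30 to 100 kb (median -0.38, 26.0% lower). *Fmn1*, also over 300 kb, was at -0.36. *Fmnl1* and *Fhod1*, of 10 to 30 kb (median -0.13), had ratios of -0.23 and 0.00. The part of gene length in the ratios of the formin genes was not tested.

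**Figure D4:**
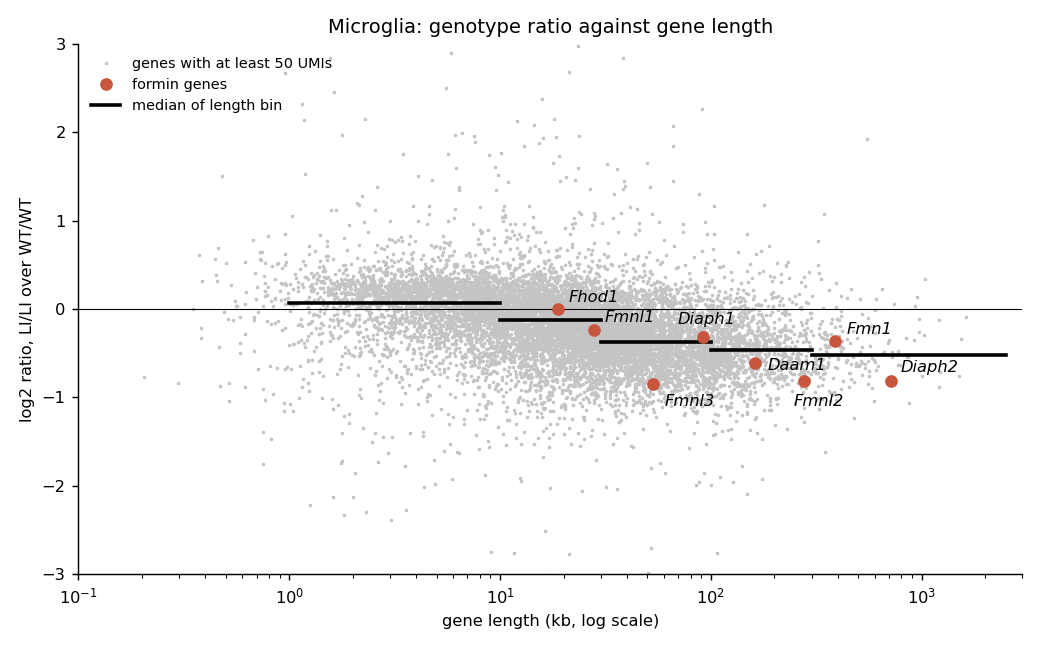
Log2 ratio of LI/LI over WT/WT in microglia (vertical axis) against gene length in kb (horizontal log axis) for 11018 genes (grey), of which 57 lie outside the axis limits, with 8 formin genes in red. Black lines are the medians of 5 length bins, which go from 0.07 to -0.52. *Fmnl1*, *Fmnl3*, *Fmnl2*, *Daam1* and *Diaph2* lay below the median of their bin, and *Diaph1*, *Fmn1* and *Fhod1* above it.

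In neutrophils, *Diaph2* was lower in LI/LI by a log2 ratio of -1.38 (-1.72 to -1.02), *Fmnl3* by -1.29 (-1.92 to -0.58), *Fhod1* by -1.41 (-2.53 to -0.04) and *Daam1* by -0.60 (-1.68 to 0.75), which makes 4 of 7 past 1.5-fold, and 0 were higher. Of all 7717 genes 44.3% were lower and 6.19% higher, with a median of -0.49. *Diaph1*, at -0.14 (-0.41 to 0.14), *Fmnl1*, at -0.14 (-0.43 to 0.17), and *Fmnl2*, at -0.22 (-0.92 to 0.58), had intervals that held 0. With TMM scaling 0 of the 7 were lower and 3 higher past 1.5-fold (*Diaph1* 0.97, *Fmnl1* 0.97 and *Fmnl2* 0.89), and *Daam1* also changed sign. *Diaph2*, at -0.27, *Fhod1*, at -0.30, and *Fmnl3* stayed below 0. In the neutrophils with under 0.1% of UMIs from the gate genes of microglia, 1 of the 7 was lower (*Diaph2*) and 1 higher (*Daam1*, on 1 WT/WT UMI), with *Diaph2* at 82.3 (55.5 to 118, 30 UMIs) in WT/WT and 42.6 (39.4 to 46.1, 647 UMIs) in LI/LI. Gene length had a rank correlation of -0.26 with the ratio, and genes over 300 kb a median of -0.99.

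*Diaph2* kept this direction in each finer group compared. The log2 ratio was -1.37 (-1.77 to -0.93) in granule-high neutrophils, -1.44 (-2.07 to -0.75) in granule-low neutrophils, -1.15 (-1.66 to -0.59) in monocytes, -1.46 (-2.003 to -0.94) in cells high in MHC class II and -1.58 (-1.97 to -1.17) in cycling cells of neither gate. In T and NK cells it was -0.86 (-1.72 to 0.02). The medians over genes of at least 300 kb in these groups were -1.05, -0.71, -0.60, -0.88, -0.67 and -0.90. In the same order, the gate genes of microglia had 1934, 2573, 574, 1350, 1173 and 1500 CPM in WT/WT. In LI/LI they had 279, 767, 237, 515, 103 and 1004 CPM. The part of microglial transcripts in these ratios was not tested. *Xist*, the transcript of the inactive X chromosome, had 2 UMIs in WT/WT and 5 in LI/LI, and the Y-linked *Ddx3y* 3125 and 2422.

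Among cycling cells 5 of 8 formin genes were lower in LI/LI (*Diaph2*, *Diaph3*, *Fmnl2*, *Fmnl3* and *Daam1*) and 1 higher (*Inf2*), beside 43.5% and 9.34% of all 8864 genes. *Inf2* rested on 2 WT/WT and 92 LI/LI UMIs, with a log2 ratio of 1.48 and an interval, -0.41 to 4.55, that held 0. *Diaph2* had a log2 ratio of -1.999 (-2.30 to -1.69) and *Diaph3* of -1.81 (-2.15 to -1.45). In the cells of neither gate *Diaph3* was at -1.24 (-1.69 to -0.76). *Fmnl2*, at -1.25 (-2.06 to -0.32), and *Fmnl3*, at -1.80 (-2.55 to -0.98), changed sign in cells with under 0.1% microglial gate UMIs, to 0.37 and 1.13, on 2 and 1 UMIs in the 20 WT/WT cells left. Summed progenitor markers (6 genes) were 2951 CPM in WT/WT and 14388 in LI/LI cycling cells, and their part in these ratios was not tested.

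In other cells 5 of 9 were lower (the same 5 names) and 2 higher (*Diaph1* and *Inf2*), beside 36.8% and 11.0% of all 9695 genes. *Diaph1* was higher in LI/LI by a log2 ratio of 0.65 (0.44 to 0.86), yet lower in the monocytes of this class, at -0.55 (-0.97 to -0.10). Those monocytes were 32 of 706 other cells in WT/WT and 1033 of 1841 in LI/LI. *Fmnl1* was likewise at 0.35 (0.13 to 0.58) over the class and -0.70 (-1.19 to -0.18) in its monocytes. *Fmnl2* and *Fmnl3* were at -2.75 (-3.28 to -2.24) and -2.65 (-3.16 to -2.16) over the class. In the cells high in MHC class II, *Fmnl2* was at -1.50 (-2.35 to -0.70) and *Fmnl3* at -2.24 (-3.56 to -1.09), and the microglial gate genes stood at 15.3% of their microglial level in WT/WT other cells against 4.41% in LI/LI.

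Of the genes that act with formins, 4 lists were counted for LI/LI over WT/WT in microglia, where 18.1% of all genes were lower by at least 1.5-fold and 2.84% higher, with a median log2 ratio of -0.19. Of the 18 formin partners and regulators, 16 were tested, 5 lower and 0 higher in LI/LI, with a median of -0.31. Lowest were *Srgap3* at -1.36 (-2.54 to -0.37, on 92 microglial UMIs over both libraries) and *Spire1*, an actin nucleator that binds formins, at -0.78. Highest were the profilin gene *Pfn1* at 0.21 and the scaffold *Iqgap1* at 0.48. Filopodia genes gave 1 lower (*Lcp1*, -0.62) and 1 higher (*Ezr*, 1.14) of 11, and genes of filament capping and turnover 0 lower and 2 higher of 12, *Capg* at 0.60 and *Gsn* at 1.38. The list of actin and SRF targets also holds the gene of SRF, a transcription factor, and those of its coactivators, which are held by actin monomers. It gave 1 lower of 10, the coactivator gene *Mrtfb* (-0.93), with *Actg1* at 0.26 and *Flna* at 0.31. The medians were -0.05 for filopodia genes, -0.02 for capping and turnover and -0.19 for actin and SRF targets. The genes named so far with ratios above 0 were higher in neutrophils than in microglia. Their mean log2 ratios were 5.64 for *Gsn*, 5.25 for *Iqgap1*, 4.51 for *Ezr*, 3.84 for *Flna*, 2.85 for *Capg*, 2.18 for *Actg1* and 1.07 for *Pfn1*. Among the others above 0, *Vasp*, *Tpm4*, *Cfl1*, *Tmsb4x*, *Actb* and *Zyx* were also higher in neutrophils. *Baiap2* (0.17) and *Twf2* (0.11) were not, with means of -2.07 and -0.50. *Myo10* (0.38) had 0 CPM in WT/WT neutrophils, where the floor of 3 UMIs gave an upper bound of 1.55 and not a measured ratio. In LI/LI its log2 ratio of neutrophils to microglia was -2.31. The microglial intervals of *Myo10* and *Baiap2* held 0. A ratio below 0 did not mean a lower level in neutrophils. *Lcp1* (-0.62), *Capza1*, *Myh9*, *Tln1*, *Mrtfa*, *Rock1*, *Vcl* (-0.22), *Srf*, *Dstn* and *Wdr1* were below 0 in LI/LI microglia. Their means for neutrophils over microglia were above 0, from 0.14 for *Tln1* to 3.47 for *Vcl*. The remaining genes of the 4 lists with ratios below 0 had means below 0. The S100 pair that gates neutrophils had 27.9 CPM in WT/WT and 688 in LI/LI microglia, values that the microglia gate limits to under 1%. The 12 neutrophil markers outside the gates summed to 160 CPM in WT/WT and 795 in LI/LI microglia. In neutrophils they summed to 89057 and 104906 CPM. The part of neutrophil transcripts in these ratios was not tested.

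The same 4 lists were compared between cell types. In neutrophils against microglia, formin partners gave 1 higher (*Iqgap1*, with a mean log2 ratio of 5.25) and 8 lower of 16, with *Spire1* at -3.37 and *Src* at -3.25. *Pfn1* was at 1.07, as a mean of 1.17 and 0.97. Filopodia genes gave 4 higher and 4 lower of 11, among them *Fscn1*, the bundler of filopodial filaments, at -3.70, *Evl* at -2.99 and *Tpm4* at 2.71. Capping and turnover gave 3 and 3 of 12, with *Capg* at 2.85 and *Capza2* at -1.88. Actin and SRF targets gave 6 higher and 1 lower of 10, led by *Flna* at 3.84 and *Vcl* at 3.47. Over all genes 8.71% were higher and 44.2% lower in this comparison. *S100a8* and *S100a9* took 248413 CPM of WT/WT and 328081 CPM of LI/LI neutrophils, which lowers the CPM of other genes there. The list counts were not repeated with TMM, whose factors were 0.431 in LI/LI neutrophils and 1.27 in LI/LI microglia. That scaling raises LI/LI neutrophil levels against microglial ones.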

How the data were processed

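Brain cells were sorted, and 3′ UMI counts were made by the authors with Cell Ranger 6.1.2 (file header) and STAR on mm10. Seurat 3.0.1 is named in the submitters' processing notes. The deposited values are whole UMI counts per gene and barcode, 33601957 UMIs in the WT/WT and 47731571 in the LI/LI library. Whether intron reads were counted is not given in the sources used here. From these counts, cells were filtered, gated and summed per class with Python 3.11.15, numpy 2.4.6, scipy 1.17.1 and pandas 2.3.3. Doublets were not removed. Levels carry exact Poisson and shares and ratios exact binomial (Clopper-Pearson) 95% intervals, and all cover counting error only. The interval script was tested on simulated data. A count of 0 was set to a floor of 3 UMIs where a bound is given. Genotype counts used a 1.5-fold limit, class counts a 2-fold limit in both libraries, and each gene needed 50 UMIs over both libraries. TMM factors came from edgeR 4.0.16. No test over cells was run, since cells are not replicates.

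The 10 genes, the marker and pathway lists, and the gates were chosen with earlier results of these data known. The granule limit, the rule for finer groups and 2 of 13 alternatives were chosen after seeing the data. All 10 genes are named, and from each of 4 pathway lists genes among the 2 highest and 2 lowest ratios. Further genes of these lists are named where their microglial ratio was above 0, or was below 0 with a higher mean level in neutrophils. A further list is not reported here. Promoters were matched by symbol to RefSeq windows of GRCm38.p6 for 9 of 10 genes, and 4 motifs were searched on both strands. Windows of chromosome 18, and so *Diaph1*, were left out of the search in the formin genes. Protein sequences were not used here.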

Additional observations from a re-analysis of the deposited data

Results flagged for a closer look

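Genes are given here when their intervals for LI/LI over WT/WT lay on opposite sides of 0 in different classes. For *Diaph1* the log2 ratio was -0.31 in microglia and 0.65 in other cells. For *Fmnl1* it was -0.23 in microglia and 0.35 in other cells. With 1 library per genotype the difference between classes was not tested. Other cells held 32 monocytes of 706 in WT/WT and 1033 of 1841 in LI/LI, and within monocytes the ratios were -0.55 for *Diaph1* and -0.70 for *Fmnl1*.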

How the results depend on the processing

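No paired analysis was possible because each genotype had 1 library. Of 221 values of the 17 results under 13 alternatives, 188 were kept and 33 moved. A count was kept when it was within 1.5-fold of its main value. The median over the 8 formin genes in microglia was kept when it lay within -0.84 to -0.22. These limits are the medians of the lower and upper ends of the intervals of those genes. Against 4 lower and 0 higher in neutrophils, means over cells gave 2 lower, TMM 0 lower and 3 higher, no minimum of UMIs 7 lower, thinning 1 higher, and cells with under 0.1% microglial gate UMIs 1 lower and 1 higher. Against 5 lower and 1 higher in cycling cells, TMM gave 3 lower, thinning 0 higher and the low-gate cells 2 higher. In the low-gate cells 1 was higher among other cells, against 2, and without a minimum of UMIs 1 was higher in microglia, against 0. The count higher in neutrophils than microglia went from 1 to 2 with thinning, means over cells, totals without hemoglobin, mitochondrial and S100 genes, TMM, the 5% of barcodes with most UMIs left out, the low-gate cells and shared barcodes left out. The count lower there went from 3 to 1 with thinning, reduced totals and TMM. With thinning, *Fmn1* and *Daam1* left it through the floor of 3 UMIs in WT/WT neutrophils. The count lower in cycling cells than microglia went from 2 to 1 with thinning, means over cells and the top 5% left out. Against 1 lower in cycling cells than neutrophils, thinning and the top 5% left out gave 0, means over cells, reduced totals and the low-gate cells 2, and TMM 5. Against 2 lower in other cells than microglia, gates at 1% and 5% gave 0 and the low-gate cells 4. *Fmnl2* and *Fmnl3* in cycling cells reversed, to 0.37 and 1.13, in the low-gate cells. Beyond what the settings change by construction, the cause was not tested. The median over the formin genes in microglia ranged from -0.63 to -0.43, and each microglial ratio kept its sign except that of *Fhod1* (-0.05 to 0.31). Depth limits *Diaph3* and *Inf2* in microglia and WT/WT neutrophils and cycling cells, of which there were 114 and 54.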
